A study of Homo sapiens with 17 samples.

Results

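A module of 101 genes, more abundant in Cal27 cells labelled as an NSD1 knockout than in parental Cal27 cells and less abundant again when the knockout was given EPZ-6438, is described here. The members were chosen by measured values, and those values are a description that supports nothing by itself. The rule worked on CPM, a gene's count scaled to a library total of 1000000, averaged over the 2 libraries of each group. Of 34496 gene rows, 27534 have a symbol without a dot and 10251 of these reached 5 CPM in the knockout with DMSO. Among them 595 genes were at least 1.4-fold above parental Cal27 in the knockout, and 101 of the 595 were also at least 1.4-fold lower with EPZ-6438. The other 494 raised genes did not meet the second condition and serve for comparison.

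The study sequenced ribosomal-RNA-depleted total RNA from 10 libraries of head and neck cancer cell lines. Cal27 is an established squamous carcinoma line of the tongue, and EPZ-6438 (tazemetostat) inhibits the histone methyltransferase EZH2. The rule used 6 libraries in 3 groups of 2: parental Cal27 given the solvent DMSO, an NSD1 knockout of that line (so labelled) given DMSO, and the same knockout given EPZ-6438. Untreated libraries, 1 each, of parental Cal27, the knockout, SKN3 and BICR78 took no part in choosing the members. The labels name 1 knockout line and do not say whether it is a clone, how the gene was disrupted, or at what dose and for how long the inhibitor was given. Every knockout library, the untreated one included, comes under that one name, and no EPZ-treated parental library was analysed here. No label says that the 2 libraries of a group came from separate cultures, so any p-value reflects the spread between the libraries at hand, which may be technical.

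NSD1 places dimethyl marks on lysine 36 of histone H3, and EZH2, the catalytic subunit of Polycomb repressive complex 2, places trimethyl marks on lysine 27, a mark of silenced genes. The first mark hinders the second on the same histone tail. Members described below include secreted growth factors, matrix proteins, guidance cues and receptors. A few are known outputs of the YAP/TEAD and ERK pathways, which link cell contact and growth factor signals to transcription. Roles are descriptions, and no enrichment was tested.

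NSD1 itself, the labelled target, counted 110 and 111 CPM in parental Cal27 with DMSO, 165 and 164 in the knockout given DMSO, and 162 and 151 in the knockout given EPZ-6438. Untreated, Cal27 had 144 CPM and the knockout 211, with 84.3 in SKN3 and 0.462 in BICR78. The knockout libraries were thus above the parental ones, by 0.53 ± 0.04 on the log2 scale (SE, n = 2 against 2), so the counts show no loss of the transcript. Gene-level counts do not show whether a message still makes protein, so "knockout" below means the libraries labelled so. Total counts ran from 11745655 to 15509079 in the 6 libraries of the rule and from 17587063 to 21738951 in the untreated ones. All 12 squamous markers (KRT5, KRT14, TP63 and others) were at 1 CPM or more in all 10 libraries. Their summed level was 8880 to 8990 CPM in parental Cal27 with DMSO, 4120 to 4260 in the knockout and 2720 to 2750 with EPZ-6438. It was 26800 CPM in untreated Cal27 and 4800 CPM in the untreated knockout. Sums over 9 fibroblast markers were 18.5 to 20.1, 7.5 to 10 and 21.5 to 25.6 CPM in the same 3 groups of the rule, over 11 immune markers 80.4 to 80.7, 177 to 183 and 231 to 237 CPM, and over 7 endothelial markers 17 to 17.2, 20.9 to 23.2 and 26.7 to 29.4 CPM. In untreated Cal27 and the untreated knockout the fibroblast sums were 25.8 and 28.1 CPM, the immune sums 71.8 and 209, and the endothelial sums 5.38 and 90 CPM. CD3D, MS4A1 and NKG7 were at 0 in all 6. The part of these shifts in the members' levels was not tested.

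The 2 ratios that define the module were of similar size over its members. The median member was 1.69-fold higher in the knockout than in parental cells, and 1.69-fold higher in the knockout with DMSO than with EPZ-6438. At least a 2-fold difference was reached by 30 members in the first ratio, by 27 in the second and by 10 in both. In 96 members both knockout libraries lay above both parental ones, as they did in 40.2% of the 13241 genes tested, and in 101 both lay above both EPZ libraries, against 36.3% of all genes. A quasi-likelihood test in edgeR with an adjusted p threshold of 0.05 called 94 members higher in the knockout, where 16.4% of all tested genes were called, and 97 lower with EPZ-6438, where 23.9% were. The rule used both contrasts, so nothing is read from these counts. Over all tested genes the knockout contrast gave 2169 higher and 2580 lower calls (16.4% and 19.5%), and 2978 and 2088 when libraries were scaled by their totals alone. The inhibitor contrast gave 3393 higher and 3171 lower calls (25.6% and 23.9%). All 101 members passed the low-count filter, 28 of them stood between 5 and 10 CPM in the knockout with DMSO and 19 exceeded 100 CPM. The smallest count of any member in a knockout DMSO library was 57.

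**Figure D1:**
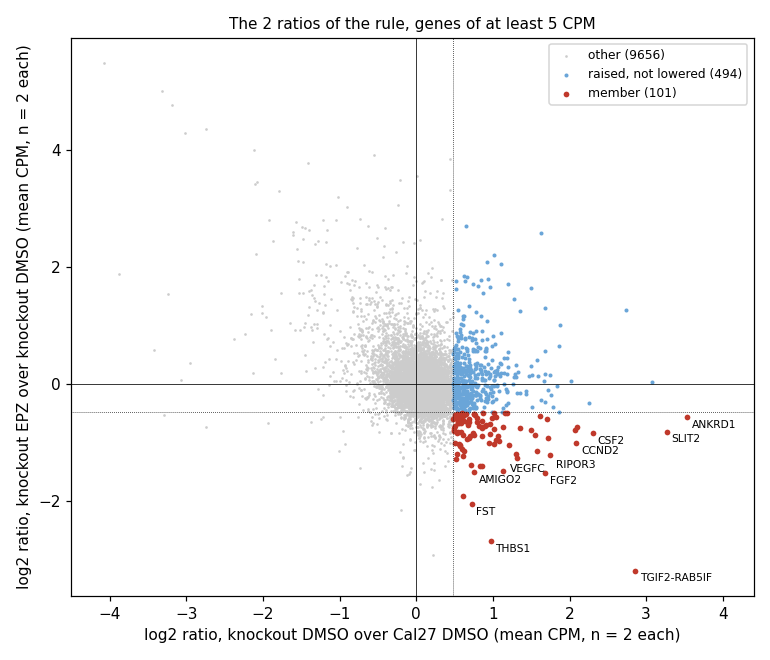
Log2 ratio of knockout with EPZ-6438 over knockout with DMSO (vertical axis) against log2 ratio of knockout over parental Cal27, both with DMSO (horizontal axis), from mean CPM of 2 libraries a group, for genes of at least 5 CPM. The 101 members (red) lie beyond both dotted 1.4-fold lines because the rule placed them there, the 494 raised but not lowered genes are blue, and both axes share the knockout DMSO libraries.

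Just inside the thresholds lay C15orf41, GSS and ERCC2, with knockout to parental ratios of 1.4, 1.401 and 1.405, and LIF, LHFPL6 and COL4A1, with knockout to EPZ ratios of 1.404, 1.406 and 1.411. Just outside lay SLC7A11, CHAC1 and FRMD5, at 1.399, 1.399 and 1.398 in the first ratio, and ARHGAP25, FZD2 and PLEKHG4B, at 1.399, 1.394 and 1.393 in the second. Genes on either side of a border hardly differ, and the border is a convention. Members were sorted into roles after their values had been seen, and the roles order the account below.

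**Figure D2:**
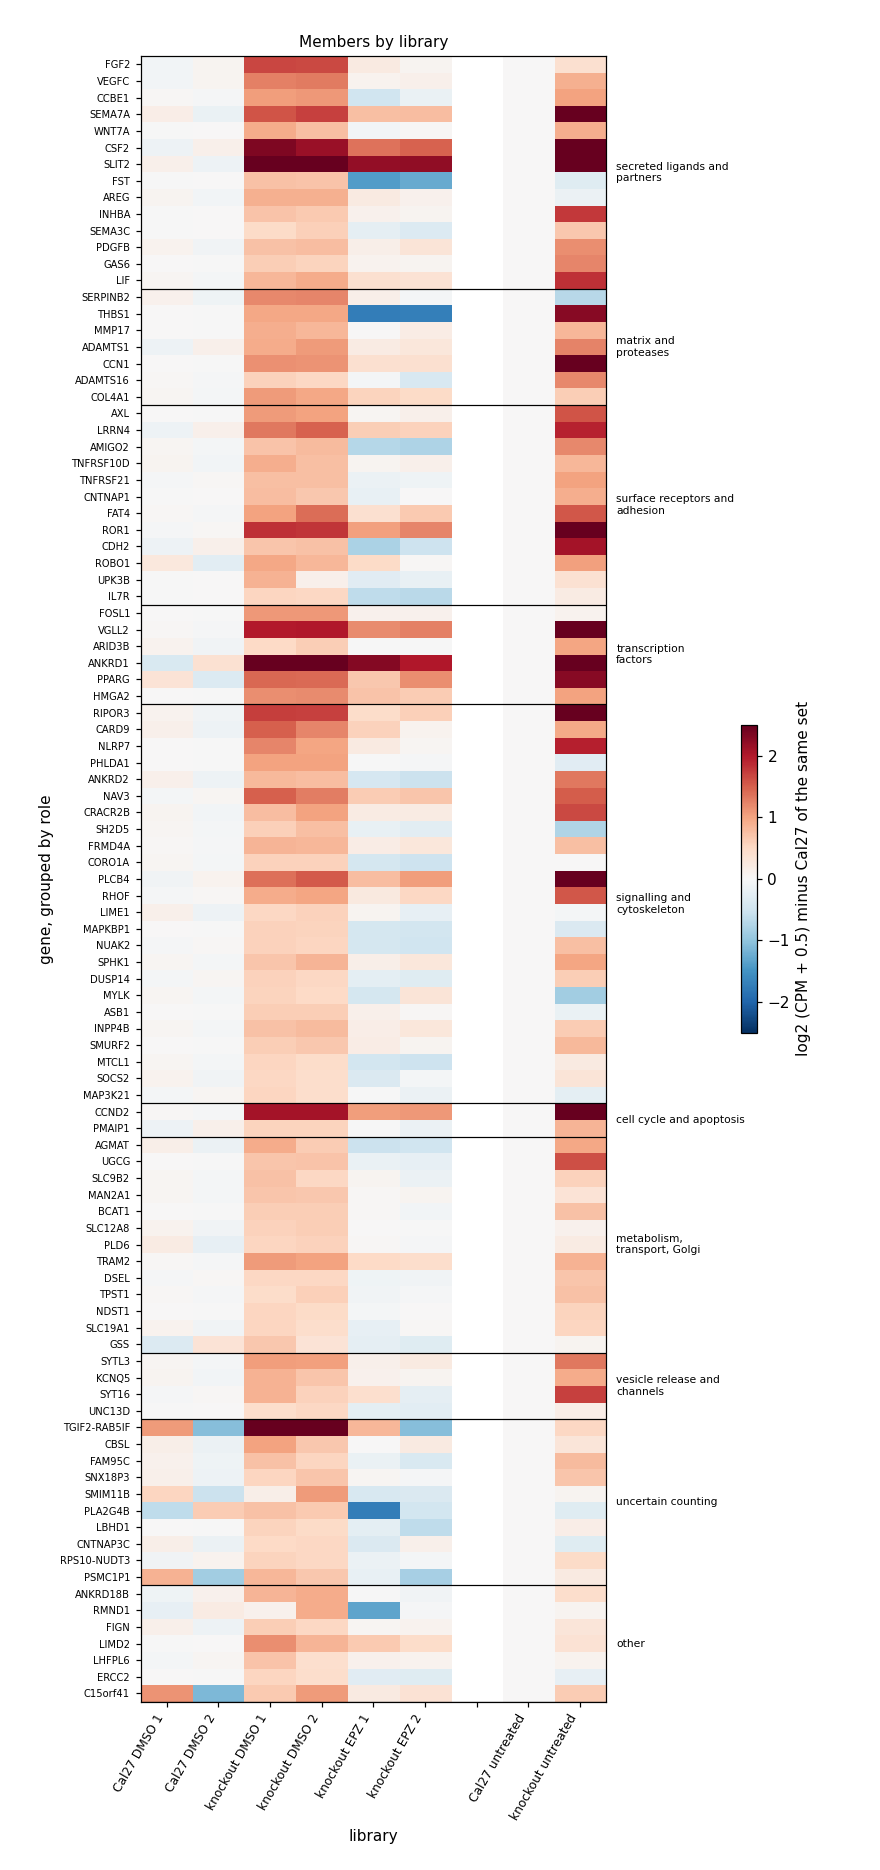
Each row is a member (2 are not shown) and each column a library; colour gives log2(CPM + 0.5) minus the mean of the parental Cal27 libraries of the same set (DMSO on the left, untreated on the right of the blank column), with colours capped at 2.5 in both directions. Knockout DMSO columns are red throughout by choice of the members, EPZ columns range from blue (THBS1, FST) to red (ANKRD1, SLIT2), and the untreated knockout column, which the rule did not use, is red for most rows.

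Promoters were available in the RefSeq table (GRCh38.p14) for 71 of the 101 members, with 105 start sites, and were searched from 250 bases before to 50 bases after each start. The motifs, on both strands, were AP-1 (TGANTCA), the TEAD motif bound by YAP's partner factors (GGAATG), and the CArG box of serum response factor. AP-1 letters occurred in 11 of 105 windows (10.5%, against 7.71% of all promoters in the table and 5.49% of those of tested genes), and TEAD letters in 17 of 105 (16.2%, against 14.0% and 11.6%). The CArG box occurred in 1 of 105 (0.952%, against 1.29% and 1.11%). These shares are descriptions, and a match is not a site of binding. Below are the 250 upstream bases, 5′ to 3′ on the gene's strand, of the 2 members whose EPZ level lay furthest below the parental one among protein-coding genes of certain counting (THBS1 and FST) and of 2 listed YAP/TEAD targets (ANKRD1 and NUAK2). Capitals mark matches on either strand: TEAD letters in THBS1 and NUAK2, AP-1 letters in FST, and both in ANKRD1. AXL, another listed YAP/TEAD target, has a start site without any of these motifs and a start site with TEAD letters. Its bases are not printed. The regions are chr15:39580829-39581078 (plus strand) for THBS1, chr5:53480379-53480628 (plus) for FST, chr10:90921088-90921337 (minus) for ANKRD1 and chr1:205321746-205321995 (minus) for NUAK2.
THBS1: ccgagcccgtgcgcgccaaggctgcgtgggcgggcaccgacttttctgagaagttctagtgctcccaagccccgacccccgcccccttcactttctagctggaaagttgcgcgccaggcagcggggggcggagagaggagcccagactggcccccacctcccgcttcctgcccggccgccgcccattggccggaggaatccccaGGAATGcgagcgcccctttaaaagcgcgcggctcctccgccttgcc
FST: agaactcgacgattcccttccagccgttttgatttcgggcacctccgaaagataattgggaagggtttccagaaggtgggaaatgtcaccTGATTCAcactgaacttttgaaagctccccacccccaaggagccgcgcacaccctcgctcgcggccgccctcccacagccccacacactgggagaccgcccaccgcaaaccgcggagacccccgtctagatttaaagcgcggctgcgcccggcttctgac
ANKRD1: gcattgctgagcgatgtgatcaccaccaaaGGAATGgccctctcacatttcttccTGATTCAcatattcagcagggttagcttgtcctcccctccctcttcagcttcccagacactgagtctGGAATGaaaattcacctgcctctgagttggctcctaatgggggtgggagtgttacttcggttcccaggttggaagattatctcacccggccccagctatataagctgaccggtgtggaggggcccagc
NUAK2: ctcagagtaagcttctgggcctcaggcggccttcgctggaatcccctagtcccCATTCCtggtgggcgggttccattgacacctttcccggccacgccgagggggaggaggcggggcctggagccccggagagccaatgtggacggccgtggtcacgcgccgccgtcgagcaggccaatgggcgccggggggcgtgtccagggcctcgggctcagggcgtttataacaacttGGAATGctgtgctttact

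Secreted ligands and their secreted partners were a group of 14 members. FGF2, a fibroblast growth factor for mesenchymal and endothelial cells, counted 22.9 and 24.98 CPM in parental cells, 77.1 and 76.1 in the knockout and 28.0 and 25.1 with EPZ-6438. The knockout pair stood well apart and the other 2 groups were close to each other, with a knockout to parental ratio of 3.20. VEGFC, which drives growth of lymphatic vessels, had the same shape: 19.5 and 21.8 CPM, then 50.4 and 51.7, then 21.97 and 22.5. CCBE1, a secreted protein required for processing VEGFC into its active form, went from 5.48 and 5.20 CPM to 11.5 and 11.9 and, with the inhibitor, to 3.66 and 4.71. Ligand and processing partner were both above their parental level in the knockout DMSO libraries, as the rule requires of every member. CCBE1 was below its parental level with EPZ-6438.

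INHBA encodes the subunit of activin A, a ligand of the TGF-beta family, and FST encodes follistatin, which binds and neutralises activins. INHBA stood at 145 and 148 CPM in parental Cal27, 240 and 232 in the knockout, and 159 and 154 with the inhibitor. FST read 358 and 361 CPM in parental cells, 596 and 591 in the knockout, and only 136 and 150 with EPZ-6438. The ligand came close to its parental level under the inhibitor, whereas its antagonist ended at 0.399 times the parental level.

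CSF2, the granulocyte-macrophage colony-stimulating factor, rested at 7.34 and 8.88 CPM in parental cells, stood at 42.5 and 37.6 in the knockout, and remained at 21.4 and 23.2 with EPZ-6438. LIF, an interleukin-6 family cytokine, counted 65.5 and 62.0, 113 and 121, and 84.8 and 82.1 CPM in the same order. Neither came back to the parental range. AREG, a ligand of the EGF receptor, counted 21.2 and 19.4, 37.7 and 37.9, and 23.9 and 21.9 CPM. PDGFB, a platelet-derived growth factor chain, counted 33.9 and 30.2, 53.5 and 54.9, and 35.4 and 40.4 CPM. The WNT ligand WNT7A was at 20.4 and 20.6, 39.6 and 34.8, and 19.6 and 20.8 CPM. WNT7A lay near the parental level with the inhibitor. AREG and PDGFB had EPZ libraries above both parental ones, at 1.13 and 1.18 times the parental mean.

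SLIT2, a guidance ligand for ROBO receptors, had 2.28 and 1.80 CPM in parental cells, 21.2 and 18.2 in the knockout, and 11.2 in each EPZ library. Its level with the inhibitor was lower than without it and still 5.48-fold above parental cells. SEMA7A, a membrane-anchored semaphorin, was at 6.41 and 5.05, 18.0 and 19.8, and 9.88 and 10.1 CPM. SEMA3C, a secreted semaphorin, was at 29.9 and 30.7, 42.2 and 45.8, and 25.7 and 23.7 CPM, so that its EPZ libraries lay below the parental pair. GAS6, the ligand of AXL, counted 171 and 169 CPM, 260 and 251, and 180 and 179.

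The group of matrix proteins, proteases and inhibitors had 7 members. THBS1, thrombospondin-1, a matricellular protein that restrains vessel growth, had 1132 and 1124 CPM in parental cells, 2215 and 2210 in the knockout, and 342 and 344 with EPZ-6438. The inhibitor libraries lay 6.45-fold below the knockout and at 0.304 times the parental level, the lowest such ratio of any member. CCN1, another matricellular protein and a much used YAP target, counted 159 and 157, 348 and 345, and 209 and 208 CPM. COL4A1, a chain of basement membrane collagen, counted 137 and 128, 276 and 258, and 194 and 185 CPM. Both were lower with the inhibitor and remained above the parental pair. ADAMTS1, a secreted metalloprotease, counted 13.1 and 15.8, 27.8 and 30.7, and 16.6 and 17.7 CPM. SERPINB2, an inhibitor of plasminogen activators, was at 3.63 and 3.10, 8.33 and 8.44, and 3.75 and 3.22 CPM. ADAMTS16 and MMP17, 2 further metalloproteases, counted 7.86 and 6.62 CPM in the first knockout DMSO library, the highest of the 6 libraries of the rule.

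Among 12 surface receptors and adhesion proteins, AXL, a receptor tyrosine kinase linked to invasion and drug resistance in carcinoma, counted 86.4 and 85.1 CPM in parental cells, 179 and 174 in the knockout, and 88.5 and 93.2 with EPZ-6438. AXL and its ligand GAS6 had knockout to parental ratios of 2.06 and 1.499. The rule asks for such a rise and fall in every member, so nothing is read from their shared shape. ROBO1, a receptor for SLIT2, was lower in abundance: 3.92 and 2.53 CPM, 6.62 and 5.97, and 4.60 and 3.22. ROR1, a receptor for WNT5A, had 1.496 and 1.59 CPM, 6.69 and 6.55, and 3.66 and 4.26, and stayed 2.57-fold above parental cells. TNFRSF21, death receptor 6, was at 169 and 174, 289 and 290, and 156 and 160 CPM, and TNFRSF10D, a decoy receptor for TRAIL, at 15.7 and 14.2, 28.4 and 25.6, and 15.7 and 16.3 CPM. With the inhibitor TNFRSF10D lay near the parental level. TNFRSF21 had EPZ libraries slightly below both parental ones, at 0.92 times the parental mean. IL7R, the interleukin-7 receptor alpha chain, counted 78.7 and 79.8, 115 and 114, and 50.9 and 49.5 CPM. CDH2, N-cadherin, a mesenchymal adhesion molecule, counted 20.6 and 24.8, 36.8 and 37.7, and 12.9 and 15.6 CPM. AMIGO2, a leucine-rich-repeat adhesion protein, counted 70.9 and 66.9, 113 and 120, and 41.8 and 40.2 CPM. These 3 had EPZ libraries below both parental ones, at 0.633, 0.627 and 0.595 times the parental mean. The remaining members of the group were FAT4, LRRN4, CNTNAP1 and UPK3B.

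**Figure D3:**
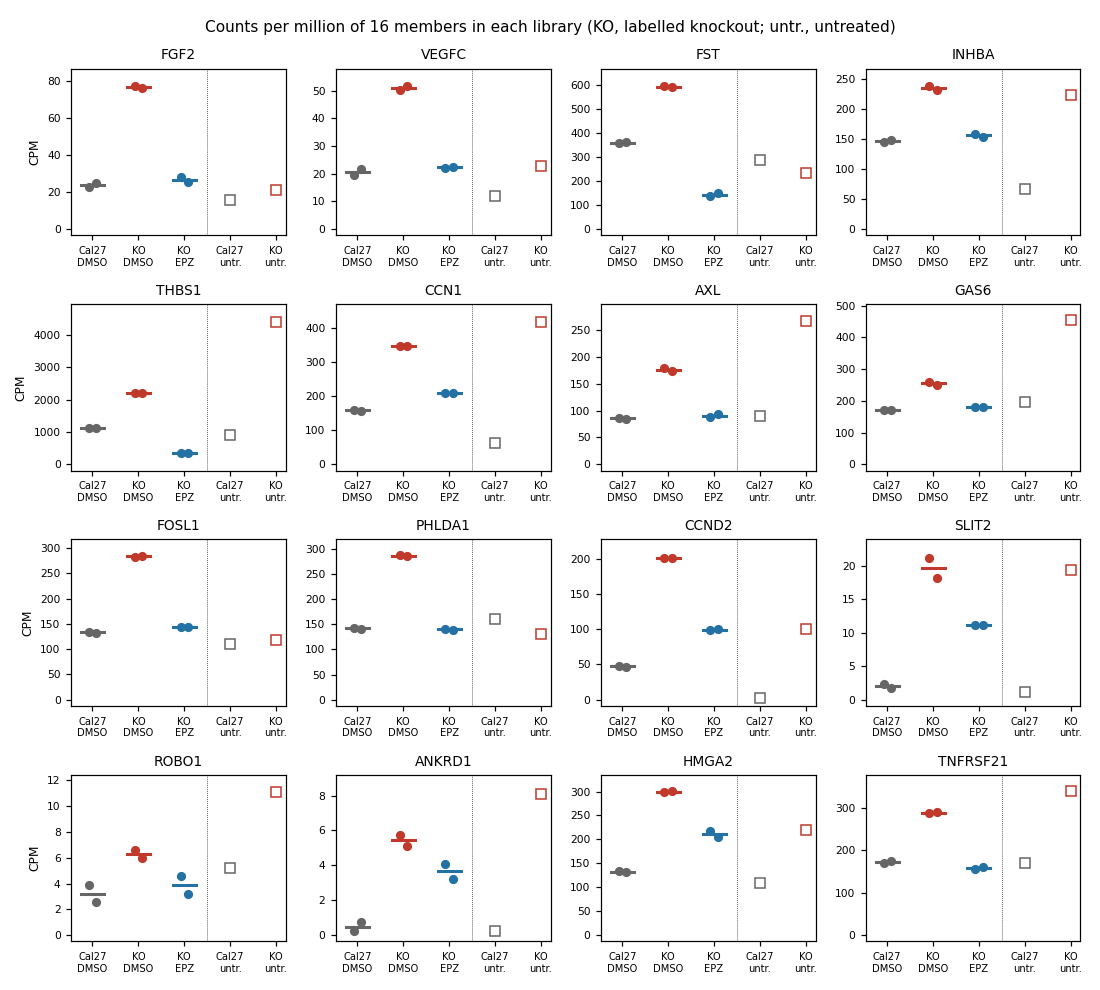
CPM of 16 members in each library (vertical axes start just below 0 and differ between panels); filled points are the 2 libraries of a group, short lines their mean, and open squares the single untreated libraries. FGF2, VEGFC, AXL, GAS6, FOSL1 and PHLDA1 sit close to the parental DMSO level with EPZ-6438, THBS1 and FST below it, and SLIT2, CCND2, HMGA2 and ANKRD1 between parental and knockout levels.

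Of the 8 transcription factors and cofactors, 7 had a mean above parental cells with the inhibitor, 4 of them by at least 1.4-fold. FOSL1, an AP-1 subunit turned on by ERK signalling, had 134 and 133 CPM in parental cells, 282 and 285 in the knockout and 144 and 143 with EPZ-6438, which put the inhibitor pair near the parental one. HMGA2, an oncofetal chromatin protein, had 134 and 131, 298 and 301, and 218 and 204 CPM. VGLL2, a cofactor that binds TEAD factors, had 7.69 and 7.29, 31.1 and 31.6, and 17.7 and 18.7 CPM. For both, the EPZ pair lay between the other pairs. ANKRD1, a cofactor and YAP target, had 0.214 and 0.722 CPM in parental cells, which are 3 and 10 reads, then 5.76 and 5.10 in the knockout and 4.09 and 3.22 with the inhibitor. Its EPZ to parental ratio of 7.81 was the highest in the module and rests on those few parental reads. PPARG, a lipid-sensing nuclear receptor, had 2.28 and 1.23, 5.45 and 5.31, and 2.98 and 4.38 CPM. Both ANKRD1 and PPARG missed the edgeR threshold in the inhibitor contrast.

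Signalling and cytoskeletal proteins were the largest role, with 24 members. PHLDA1, an immediate product of growth factor signalling, counted 144 and 141 CPM, 288 and 286, and 141 and 140. Its EPZ pair lay just under the parental one, and its knockout pair well above both. SPHK1, the kinase that makes sphingosine-1-phosphate, was at 14.2 and 13.4, 22.8 and 25.3, and 15.4 and 16.9 CPM. DUSP14, a phosphatase of MAP kinases, was at 37.3 and 40.1, 57.8 and 55.6, and 32.6 and 31.5 CPM. NUAK2, an AMPK-related kinase and YAP target, counted 19.3 and 19.9 CPM, 29.5 and 28.8, and 14.3 and 13.7. DUSP14 and NUAK2 thus ended below the parental pair and SPHK1 slightly above it. RIPOR3 counted 31.1 and 27.7, 99.2 and 97.4, and 40.5 and 44.5 CPM. PLCB4, a phospholipase C, counted 1.57 and 1.80, 5.14 and 5.82, and 3.23 and 3.998 CPM. SMURF2, a ubiquitin ligase that limits TGF-beta signalling, counted 55.8 and 55.0, 85.3 and 88.6, and 63.4 and 57.9 CPM. All 3 had EPZ libraries above both parental ones. MYLK, the myosin light-chain kinase, was uneven with EPZ-6438 (7.24 and 12.6 CPM) against 14.8 and 14.2 in the knockout and 10.3 and 9.53 in parental cells.

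CCND2, cyclin D2, which promotes entry into S phase, had 47.8 and 46.4 CPM in parental cells, 201 and 200 in the knockout and 98.3 and 101 with EPZ-6438. PMAIP1 (NOXA), a pro-apoptotic BCL2-family protein, had 25.4 and 30.8, 41.2 and 41.3, and 27.8 and 25.1 CPM. The cyclin kept 2.11 times its parental level with the inhibitor, whereas PMAIP1 stood at 0.942 times its own. The 13 genes of metabolism, transport and the Golgi were mostly of modest ratio: 11 of 13 had EPZ means below parental cells, and only AGMAT by 1.4-fold or more. NDST1, which modifies heparan sulfate, the co-receptor of FGF2, counted 201 and 199, 290 and 280, and 195 and 201 CPM. UGCG, glucosylceramide synthase, counted 112 and 110, 179 and 182, and 99.5 and 96.2 CPM. BCAT1, the cytosolic branched-chain amino acid transaminase, counted 85.1 and 83.3, 129 and 129, and 85.4 and 80.3 CPM. The EPZ means of these 3 genes were 0.989, 0.881 and 0.984 times the parental ones. SYTL3, SYT16, UNC13D and KCNQ5 form a small group of vesicle release and channel genes, with knockout to parental ratios from 1.41 (UNC13D) to 2.09 (SYTL3).

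The remaining 17 members call for care or have no shared role. Counting is uncertain for 10: the read-through transcripts TGIF2-RAB5IF and RPS10-NUDT3, the near-identical copies CBSL, SMIM11B and CNTNAP3C, the pseudogenes PSMC1P1 and SNX18P3, and FAM95C, PLA2G4B and LBHD1, which share sequence or position with other genes. TGIF2-RAB5IF had the most extreme ratio to the inhibitor group, 9.11, but counted 1.71 and 0.00 CPM in parental cells, 6.07 and 6.33 in the knockout, and 1.36 and 0.00 with EPZ-6438, so its libraries disagree within groups. In all, 67 members overlap another RefSeq gene, and the strand setting of the counting is not given in the sources used here. Libraries of the same group also diverged in C15orf41, with 21.3 and 4.04 CPM in parental cells, 15.1 and 20.4 in the knockout and 11.1 and 12.3 with the inhibitor. SMIM11B, RMND1, PSMC1P1, GSS and C15orf41 are the 5 members whose knockout and parental libraries overlapped.

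Levels with EPZ-6438 were set against parental cells with DMSO, a contrast of the same 6 libraries that the rule did not use but in part fixes. The ratio of means was below 1 for 50 members and above 1 for 51, with a median of 1.005 and a range from 0.304 (THBS1) to 7.81 (ANKRD1). Within 1.4-fold of the parental level lay 72 members, while 13 were at least 1.4-fold below it and 16 at least 1.4-fold above. Among the 494 raised but not lowered genes, 0 were below the parental level and the median ratio was 1.715, a gap that the rule itself largely sets. edgeR called 20 members higher in EPZ-treated knockout cells than in parental cells, where 26.1% of all tested genes were called, and 20 lower, where 25.9% were. The members' shares are a little under these background shares, and 61 members were not called either way, which does not show that their levels were equal.

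Both ends of that range are described in turn. Below the parental level by 1.4-fold or more were THBS1, FST, AMIGO2, CDH2, IL7R, AGMAT, ANKRD2, CORO1A, MTCL1 and RMND1. So were the uncertainly counted PLA2G4B, PSMC1P1 and SMIM11B. Above the parental level were ANKRD1, SLIT2, CSF2, ROR1 and VGLL2, then PLCB4, CCND2, PPARG, SEMA7A and 7 others. Secreted or surface proteins lay at both ends, with THBS1, FST, AMIGO2, CDH2 and IL7R below and SLIT2, CSF2, ROR1 and SEMA7A above. The log2 difference in that contrast was 2.40 ± 0.18 for SLIT2 and -1.77 ± 0.02 for THBS1 (SE, n = 2 against 2). The EPZ and parental libraries did not overlap in either gene.

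**Figure D4:**
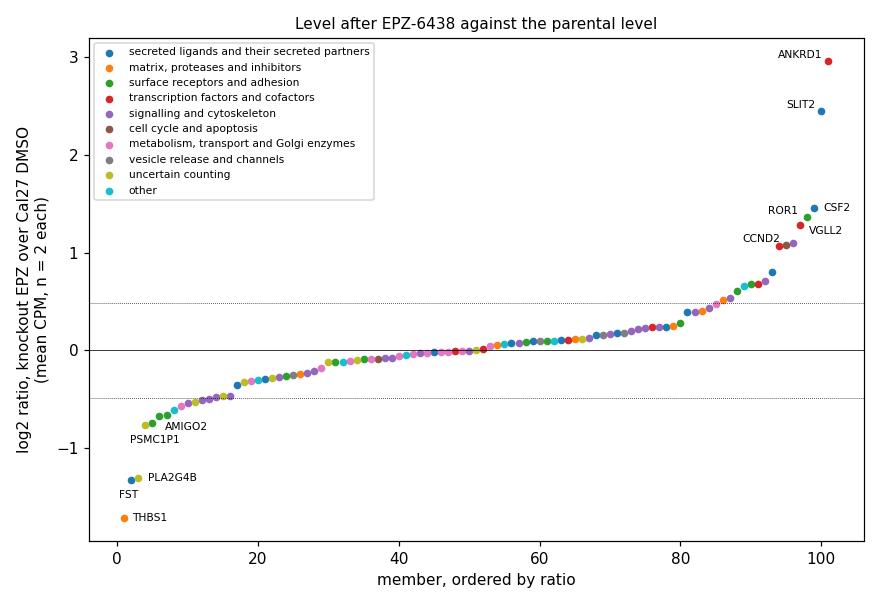
Log2 ratio of knockout with EPZ-6438 over parental Cal27 with DMSO (mean CPM, 2 libraries each; vertical axis) for the 101 members in order of that ratio (horizontal axis), coloured by role. The dotted lines mark 1.4-fold: 72 members lie between them, 13 below and 16 above, from THBS1 to ANKRD1.

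The untreated pair is the only comparison of knockout with parental cells in libraries that the rule did not use, with 1 library on each side and hence no replicate check. Of the 101 members, 81 (80.2%) were higher in the untreated knockout, measured as a difference of log2 CPM after TMM scaling with a prior count of 2. Over all tested genes the share was 49.0%. At least 1.4-fold higher were 63 members (62.4%, background 14.4%) and at least 1.4-fold lower were 4 (3.96%, background 17.3%), with a median difference of 0.70 against -0.01 over all genes. The 494 raised but not lowered genes gave 87.0% higher, 66.2% by at least 1.4-fold, and a median of 0.78. The sign in the untreated pair thus mostly followed the DMSO pair in both sets, and nothing here is particular to the members. Exact 95% Poisson intervals describe counting error and no other, and were taken on CPM by library totals, without TMM scaling. By them 71 members lay wholly higher in the knockout, 7 lay wholly lower, and 23 had overlapping intervals. On that scale the median difference over all tested genes was 0.10. The same count over all tested genes or over the 494 was not made, so nothing is read from these counts.

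Several members had large ratios in the untreated pair. THBS1 counted 902 CPM in untreated Cal27 (interval 890.0 to 915.0) and 4384 in the untreated knockout (4360.0 to 4410.0). CCN1 counted 61.8 (58.6 to 65.2) and 417 (408 to 426). RIPOR3 counted 21.3 (19.4 to 23.3) and 190 (184 to 196). Each of the 3 had intervals far apart and a larger ratio than in the DMSO libraries; the difference between the pairs was not tested. CSF2 counted 0.874 (0.526 to 1.36) and 43.8 (41.1 to 46.7), and SLIT2 counted 1.15 (0.744 to 1.7) and 19.4 (17.6 to 21.4). CCND2 went from 2.21 (1.63 to 2.93) to 101 (96.6 to 105). CCND2 and CSF2 were among 5 members whose level in Cal27 itself changed more than 4-fold between the untreated and the DMSO libraries. NLRP7 was likewise higher with DMSO, and MYLK and GSS were higher untreated. The labels do not say what else differed between the 2 sets, and the source of that gap was not tested. Without these 5 genes 78 of 96 members (81.2%) were higher in the untreated knockout, and without the 10 of uncertain counting 74 of 91 (81.3%).

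The ligand and partner pairs kept their direction in the untreated libraries with 1 exception. AXL counted 89.7 CPM (85.8 to 93.8) in untreated Cal27 and 268 (261 to 275) in the knockout. GAS6 counted 195 (189 to 201) and 453 (444 to 463). Receptor and ligand were both higher. VEGFC was at 12.0 (10.6 to 13.5) and 22.6 (20.6 to 24.7) CPM and CCBE1 at 9.84 (8.57 to 11.3) and 20.2 (18.4 to 22.2). ROBO1 was at 5.20 (4.28 to 6.25) and 11.1 (9.71 to 12.6), next to the difference of its ligand SLIT2 given above. INHBA was higher, at 65.9 (62.5 to 69.4) and 225 (218 to 231), whereas its antagonist FST was lower, at 289 (282 to 296) and 233 (227 to 240).

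By role, the untreated knockout was higher for 12 of 12 surface receptors and adhesion genes, 12 of 14 secreted ligands and partners, 6 of 7 matrix genes, 12 of 13 metabolic, transport and Golgi genes, 6 of 8 transcription factors and cofactors, 16 of 24 signalling and cytoskeletal genes, 4 of 4 vesicle and channel genes, 2 of 2 cell cycle and apoptosis genes, 7 of 10 of uncertain counting and 4 of 7 others, where 49.0% of all tested genes were higher. FGF2 was 1.63 ± 0.07 higher on the log2 scale with DMSO and 0.31 higher untreated, at 15.8 (14.2 to 17.5) and 21.0 CPM (19.1 to 23.1). FOSL1 was 1.03 ± 0.03 higher with DMSO and had overlapping intervals untreated, at 110 (106 to 115) and 118 (113 to 123) CPM, a log2 difference of -0.01 that turns positive when libraries are scaled by their totals alone. PHLDA1, lower in the untreated knockout at 132 CPM (127 to 137) against 160 (155 to 166), went the other way from its DMSO pair. SPHK1, the third member of the ERK list, was higher, at 34.2 CPM (31.8 to 36.8) against 16.9 (15.2 to 18.7). Scaling by totals alone moved the median of all genes by 0.10 and put 87 members above 0. Across the 101 genes the log2 ratio with DMSO and the untreated difference had Pearson's r of 0.73 and Spearman's rho of 0.64, and the ratio to the inhibitor group had r of -0.01 with it. These are descriptions across genes of the same libraries, which are not independent replicates.

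**Figure D5:**
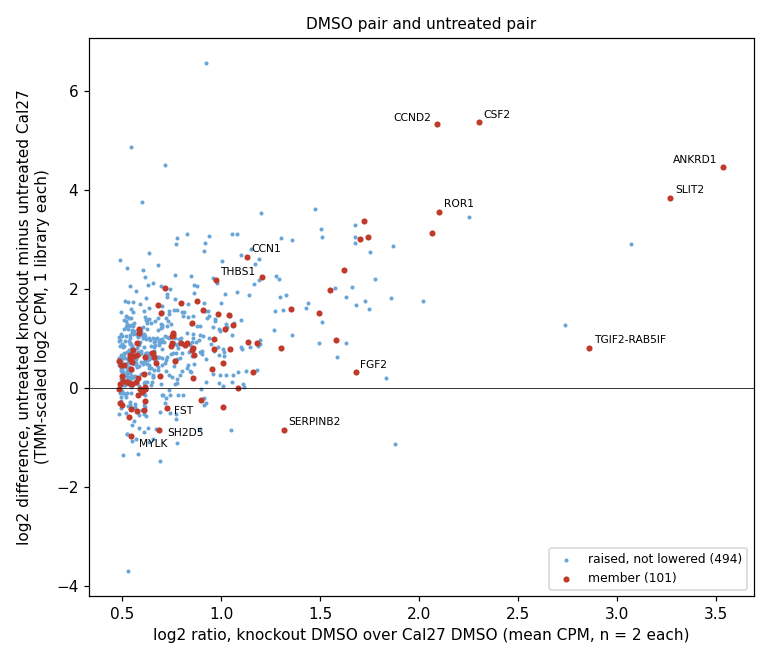
Difference in log2 CPM between the untreated knockout and untreated Cal27 (TMM scaled, 1 library each; vertical axis) against the log2 ratio of the knockout over Cal27 with DMSO (mean CPM, 2 libraries each; horizontal axis). Of the 101 members (red) 81 lie above 0, as do 430 of the 494 raised but not lowered genes (blue); SERPINB2, SH2D5, MYLK and FST lie below.

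SKN3 and BICR78, the other head and neck cancer lines, carried members on both sides of the untreated Cal27 level. In SKN3, 45 members (44.6%) were at least 1.4-fold higher than in untreated Cal27, against 27.3% of all tested genes, and 43 (42.6%) at least 1.4-fold lower, against 4769 of the 13241. In BICR78, 43 members (42.6%) were higher by that measure, against 24.2%, and 27 (26.7%) lower, against 3391 of the 13241. The members' median log2 differences were 0.00 in SKN3 and 0.24 in BICR78, against -0.13 and -0.05 over all tested genes, and each line is 1 library with no test. SLIT2 was at 139 CPM in SKN3 and 15.3 in BICR78, against 1.15 in untreated Cal27. INHBA was at 0.682 and 47.0, IL7R at 0.171 and 43.8, and THBS1 at 5.80 and 603 CPM in SKN3 and BICR78. SKN3 was thus low for several members that Cal27 and BICR78 carry, and high for SLIT2, CCN1 (298 CPM) and COL4A1 (580 CPM).

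Gene lists were written with earlier results of these data known, and 30 members fall in 1 or more of them. The list counts below include these members, whose direction in both contrasts the rule set. The counts were not repeated without them, so the shares are descriptions only. Of 23 tested YAP/TEAD targets, edgeR called 13 higher and 3 lower in the knockout, and 3 higher and 11 lower with EPZ-6438. These are 56.5% and 13.0%, then 13.0% and 47.8% of the list, against 16.4% and 19.5%, then 25.6% and 23.9% of all tested genes. The list medians were 0.27 and -0.24, against -0.01 and 0.00 over all genes. In the untreated pair 18 genes of the list were higher in the knockout and 5 lower, with a median difference of 0.57. The 4 members in this list were CCN1, ANKRD1, AXL and NUAK2. Other targets, named after their values were seen, moved unevenly: F3, tissue factor, averaged 939 CPM in parental cells, 1230 in the knockout and 621 with the inhibitor, and missed membership in the first ratio. NT5E, the surface enzyme CD73, averaged 52.0, 161 and 133 CPM and missed it in the second. CCN2, the relative of CCN1, averaged 9.42, 11.7 and 12.9 CPM and was called in neither contrast.

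Of 24 tested genes of ERK pathway output, 16 were called higher and 1 lower in the knockout, and 9 higher and 7 lower with EPZ-6438, with medians of 0.46 and 0.24. These are 66.7% and 4.17%, then 37.5% and 29.2% of the list. Of all tested genes the shares were 16.4% and 19.5%, then 25.6% and 23.9%. The untreated pair did not show the rise: 10 genes of the list were higher in the knockout and 16 lower. The median untreated difference was -0.27, against -0.01 over all tested genes, with 1 library a side. FOSL1, PHLDA1 and SPHK1 were the 3 members. DUSP4, a phosphatase induced by ERK, averaged 43.9 CPM in parental cells, 83.0 in the knockout and 176 with the inhibitor. ETV5, an ERK-induced ETS factor, averaged 6.95, 19.6 and 24.2 CPM. Both were called higher again with EPZ-6438 rather than lower. AP-1 subunits, with 16 tested, were called higher in 3 and lower in 5 in the knockout (18.8% and 31.2%). With the inhibitor 9 were called higher and 1 lower (56.2% and 6.25%), beside the same shares of all tested genes. FOSL1 was the only member.

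The remaining lists are read beside the same shares of all tested genes, 16.4% higher and 19.5% lower in the knockout and 25.6% and 23.9% with EPZ-6438. Of 67 tested growth factors, cytokines and secreted inhibitors, 38 were called higher and 16 lower in the knockout (56.7% and 23.9%), and 27 higher and 26 lower with EPZ-6438 (40.3% and 38.8%). This list held 11 members, the most of any, and the rule placed them on the higher side in the knockout and the lower side with EPZ-6438. Cell-surface receptors (73 tested) gave 40 and 14 (54.8% and 19.2%), then 26 and 22 (35.6% and 30.1%), with 5 members. Matrix and adhesion genes (70 tested) gave 31 and 22 (44.3% and 31.4%), then 36 and 24 (51.4% and 34.3%), also with 5. The median of the growth factor list with the inhibitor was -0.02, close to that of all genes. In the untreated pair 49 genes of the growth factor list were higher in the knockout and 29 lower. The receptor list had 38 higher and 41 lower there, and the matrix list 40 and 35, where 49.0% of all tested genes were higher. Actin and SRF targets (37 tested) gave 16 and 4 (43.2% and 10.8%), then 10 and 20 (27% and 54.1%), with MYLK as a member. Cell cycle genes (50 tested) gave 14 and 5 (28% and 10%), then 6 and 29 (12% and 58%), with CCND2. Epithelial and mesenchymal transcription factors (49 tested) gave 12 and 15 (24.5% and 30.6%), then 19 and 10 (38.8% and 20.4%), with HMGA2 and VGLL2. Lists of ribosome biogenesis (30 tested; 2 and 4, then 0 and 29), amino acid stress (27; 9 and 9, then 5 and 17), cholesterol and fatty acid synthesis (33; 4 and 13, then 9 and 16), and glycolysis and hypoxia (27; 6 and 13, then 15 and 5) held no member. Ribosome biogenesis genes were thus nearly all lower with the inhibitor and few were called in the knockout.

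Position in the genome, which the rule did not use, was tallied. Chromosome 18 carried 6 members (SERPINB2, CCBE1, CDH2, DSEL, PMAIP1 and MTCL1), or 5.94% of the module against 1.43% of genes of at least 5 CPM. Chromosome 21 carried 4 (3.96% against 1.04%), among them CBSL and SMIM11B, which are of uncertain counting. Chromosome 4 carried 9 (8.91% against 3.60%), among them FGF2, VEGFC, SLIT2 and AREG, and chromosome 1 carried 6 (5.94% against 10.6%). No chromosome was tested. Within 1000000 bases of each other lay 6 pairs of members: ARID3B and SEMA7A, CCBE1 and PMAIP1, FAM95C and SNX18P3, LIMD2 and SMURF2, MAPKBP1 and PLA2G4B, and SPHK1 and UNC13D. CCBE1 and PMAIP1 are 202275 bases apart on chromosome 18. FAM95C, SNX18P3 and PLA2G4B are of uncertain counting. Neighbouring pairs were not counted among the other genes of at least 5 CPM, so nothing is read from these pairs.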

How the data were processed

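Raw counts of reads per gene were deposited by the authors and used as deposited. Per the submitters' processing notes, featureCounts 1.6.1, HISAT2 2.1.0, Picard 2.23.1 and CASAVA 1.7 were used with build hg38. What each tool did, the annotation and the strand setting are not given in those sources. Libraries were grouped by their titles. The 7 CUT&Tag samples were not analysed here.

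CPM used column totals. One edgeR 4.0.16 model (R 4.3.3) held the 6 DMSO and EPZ libraries ( filterByExpr, TMM, quasi-likelihood test, Benjamini-Hochberg over 13241 genes, residual df 3, adjusted p threshold 0.05). The fit was tested on simulated data. DESeq2 1.42.0, other scalings, filters, fold and CPM limits, a replicate block and leaving out each library were alternatives. Single-library values carry exact 95% Poisson intervals. The members, the 17 gene lists and the tests were chosen with earlier results of these data known. Genes were named by role, list, size of either ratio, level, EPZ to parental ratio, untreated difference and nearness to a threshold. Members were matched by symbol or synonym to RefSeq (GRCh38.p14), 101 of 101, of which 98 are protein-coding. Some items are not reported here.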

Additional observations from a re-analysis of the deposited data

Results flagged for a closer look

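In 7 members both knockout DMSO libraries lay above both parental ones, while the single untreated knockout library lay below untreated Cal27 with Poisson intervals that do not overlap. The untreated log2 differences were -0.85 for SERPINB2 (7.91 CPM in Cal27, 4.67 in the knockout), -0.39 for PHLDA1, -0.41 for FST, -0.86 for SH2D5 (22.9 and 13.5 CPM), -0.47 for MAPKBP1 (73.5 and 56.9 CPM), -0.98 for MYLK (120 and 64.9 CPM) and -0.31 for ERCC2 (59.1 and 51.2 CPM). The difference between the DMSO pair and the untreated pair was not tested, since the untreated pair has 1 library a side. The intervals cover counting error only. Intervals were not compared over all tested genes, so nothing is read from the number of such members. MYLK also stood at 120 CPM in untreated Cal27 against 10.3 and 9.53 with DMSO.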

How the results depend on the processing

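Membership depends on its limits: 193 genes met the rule at 1.3-fold, 58 at 1.5-fold, 10 at 2-fold and 172 at 1 CPM, against 101. Leaving out each library in turn gave 102 to 124. The share of members whose TMM-scaled fitted log2 change put EPZ below parental cells was 51.5% (49.5% by the CPM means of the report), 30.0% at 2-fold, and 42.6% to 55.4% without single libraries. Without the second Cal27 DMSO library the knockout log2 difference turned to -0.17 for PSMC1P1 and -0.31 for C15orf41, and without the first it was 1.66 and 2.08. Of 756 values of the 84 log2 changes of 42 named members, 686 stayed within 1 SE of the main value, 68 moved beyond it and these 2 turned sign.

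Genes called higher in the knockout numbered 2169 with edgeR, 1512 with DESeq2, 2978 with library totals alone, 2364 without a filter and 1560 to 2237 without single libraries. Those called lower with EPZ numbered 3171, 2378 with DESeq2 and 2521 to 3127 without single libraries. A replicate block gave 2054 and 3071. Deviations of same-numbered libraries from their group means had r of 0.01, -0.04 and 0.00 between groups, so no shared shift was visible. That cannot show whether same-numbered libraries were handled together, which the labels do not say. The smallest count of a member was 57 reads in the knockout DMSO libraries, and lower in the other groups. TGIF2-RAB5IF had 0 reads in the second parental and the second EPZ library, and ANKRD1 had 3 in the first parental one. Ratios of low members are therefore limited by depth.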
